A study of Homo sapiens with 9 samples.

Results

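NMRAL2P, OSGIN1, TRIM16 and TRIM16L are 4 genes linked to NRF2, the transcription factor that switches on antioxidant defence. They were 4 of the 61311 genes listed in a table of RNA sequencing counts from HaCaT, an immortalized human keratinocyte line, and all 4 passed the filter on low counts, as did 15154 genes in all. The genes were selected on their higher counts with the CT extract, that is, on the comparisons of CT with UVA and with NC, so their differences between the CT group and the other groups describe that choice and carry no test here. The cells formed 3 groups with 3 libraries each. CT-treated UVA-irradiated HaCaT cells (CT) were irradiated with UVA at 5 J/cm2 and then given the extract of the plant Coreopsis tinctoria, UVA-irradiated HaCaT cells (UVA) had 5 J/cm2 without the extract, and control HaCaT cells (NC) had no UVA. All cells were labelled wild type and were grown in the same medium. Whether the 3 libraries of a group are separate cultures is not stated in the labels. The p-values therefore cover the spread between these libraries, which may be technical.

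NRF2 (gene NFE2L2) is held down in resting cells by KEAP1, which brings it to a CUL3 ubiquitin ligase. Oxidants and electrophiles block KEAP1, and NRF2 then binds antioxidant response elements together with a small MAF protein. UVA produces reactive oxygen species in skin cells, and NRF2 targets such as NQO1 and the glutathione synthesis genes are part of the keratinocyte response to them. NMRAL2P is a transcribed pseudogene related to NMRAL1, a protein that senses the redox state of NADPH, and in colon cancer cells its RNA was described as an NRF2 target that promotes NQO1 expression. OSGIN1 encodes an oxidative stress induced growth inhibitor that acts in cell death and autophagy. TRIM16, also known as EBBP, encodes a tripartite motif protein without a RING domain that binds galectin-3 at damaged lysosomes, promotes autophagy and affects keratinocyte differentiation. TRIM16L is a shortened copy of TRIM16 that lies elsewhere on the same chromosome.

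The libraries held 20129928 to 21971215 counts in CT, 16390289 to 19527286 in UVA and 17053246 to 19324311 in NC. Levels are given as CPM, the counts of a gene relative to its library's total, scaled by TMM factors of 0.976 to 1.01. All 10 keratinocyte markers examined (among them KRT5, KRT14 and TP63) were detected, and their summed level was 4103 to 4259 CPM in CT, 3919 to 4334 CPM in UVA and 4955 to 5788 CPM in NC. That sum was lower in every CT and UVA library than in every NC library, and its part in the differences below was not tested. KRT5 made up much of it, averaging 1409 CPM in CT, 1451 CPM in UVA and 2194 CPM in NC. In UVA against NC 7 of the 10 were called lower and 0 higher, against 10.6% and 10.5% of all tested genes. In CT against NC 5 were called lower and 1, LAMB3, higher, against 14.2% and 15.7% of all tested genes. KRT16 averaged at most 1.92 CPM in any group. Markers of other cell types were low. The 5 fibroblast markers summed to 0.865 to 1.15 CPM in CT, 0.869 to 1.33 CPM in UVA and 1.95 to 3.06 CPM in NC. The sums of the 4 melanocyte markers were 1.94 to 2.24, 1.89 to 2.25 and 1.30 to 1.95 CPM in CT, UVA and NC, and those of the 4 immune markers 0.0961 to 0.498, 0.304 to 0.614 and 0.162 to 0.875 CPM. The 3 endothelial markers summed to 5.74 to 6.87 CPM in CT, 8.39 to 9.25 CPM in UVA and 6.997 to 9.75 CPM in NC. Of these, CDH5 averaged 4.79 CPM in CT, 6.03 CPM in UVA and 3.57 CPM in NC and was called higher in UVA against NC (log2 fold change 0.76 ± 0.18 SE, edgeR adjusted p = 0.00568), and VWF averaged 1.47 CPM in CT, 2.51 CPM in UVA and 4.03 CPM in NC and was called lower in CT against NC (-1.45 ± 0.26, adjusted p = 0.000270). Their part in the members' differences was not tested. PDGFRA and TYR had 0 counts in all 9 libraries.

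The positions of the 4 genes were read from GENCODE 29 on GRCh38, the build named in the submitters' processing notes. NMRAL2P lies at chr3:185959943-185980872 on the plus strand and is annotated as a transcribed unprocessed pseudogene with 2628 exonic bases and no coding transcript. OSGIN1 lies at chr16:83948282-83966332 on the plus strand, is protein coding and has 3460 exonic bases. TRIM16 lies at chr17:15627960-15684311 on the minus strand, with 5640 exonic bases. TRIM16L lies at chr17:18697998-18736118 on the plus strand, with 4329 exonic bases. GENCODE 29 calls it protein coding and RefSeq calls it a transcribed pseudogene.

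TRIM16 and TRIM16L are so alike that short reads cannot always tell them apart, and their sequence is shown for that reason. The TRIM16L coding sequence of 1044 bases aligned without a gap to the last 1044 of the 1692 coding bases of TRIM16, with 1030 identical bases (98.7%). The longest identical run was 220 bases. The 90-base stretch with the most differences, bases 1042 to 1131 of the TRIM16 coding sequence and bases 394 to 483 of that of TRIM16L, still differed at only 4 bases, which are in capitals:
TRIM16: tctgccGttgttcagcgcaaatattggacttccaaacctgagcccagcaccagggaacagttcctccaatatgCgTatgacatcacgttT
TRIM16L: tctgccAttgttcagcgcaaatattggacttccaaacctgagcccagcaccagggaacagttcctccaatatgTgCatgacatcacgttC

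Of the distinct 100-base words in the annotated transcripts, 13.2% of those of TRIM16 also occurred in TRIM16L, and 18.5% of those of TRIM16L also occurred in TRIM16. At 50 bases the shares were 28.9% for TRIM16 and 39.4% for TRIM16L, and at 150 bases they were 5.49% for TRIM16 and 7.92% for TRIM16L. TRIM16 also shared 16.8% of its 100-base words with an overlapping read-through gene, ENSG00000251537, which held 94 to 164 counts per library. OSGIN1 shared 9.79% of its 100-base words with the overlapping read-through gene AC009119.2. How the authors' counting treated reads that match several genes is not given in the sources used here, so the split of counts between TRIM16 and TRIM16L is uncertain.

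NMRAL2P shared no word of 50, 100 or 150 bases with any other annotated gene. Its best match to the coding sequence of NMRAL1, the gene it derives from, spanned 204 bases with 152 identical (74.5%), and the longest identical run was 18 bases. The 90-base stretch with the most differences lies at bases 150 to 239 of the NMRAL2P transcript and bases 293 to 382 of the NMRAL1 coding sequence. Picked for its differences, it differs more than the match as a whole, and its 29 differing bases are in capitals:
NMRAL2P: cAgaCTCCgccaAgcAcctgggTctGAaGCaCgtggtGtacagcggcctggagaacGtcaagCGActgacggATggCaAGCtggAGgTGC
NMRAL1: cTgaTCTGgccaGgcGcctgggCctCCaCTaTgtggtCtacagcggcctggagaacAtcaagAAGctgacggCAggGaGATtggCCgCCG

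NMRAL2P had 808, 640 and 781 counts in the CT libraries, 303, 224 and 330 in the UVA libraries and 283, 257 and 247 in the NC libraries. In CPM these were 38.8, 31.9 and 36.4 in CT, 16.8, 13.6 and 16.9 in UVA, and 14.6, 13.9 and 14.5 in NC. Every CT library stood far above the other 6, while the UVA and NC libraries overlapped because UVA replicate 2 was the lowest of all 9. The means were 35.7 ± 3.53 CPM in CT, 15.8 ± 1.86 CPM in UVA and 14.3 ± 0.368 CPM in NC (SD, n = 3 each).

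OSGIN1 was the gene with the fewest counts, with 266, 264 and 235 in CT, 131, 112 and 134 in UVA and 111, 108 and 97 in NC. Its levels were 12.8, 13.2 and 10.97 CPM in CT, 7.28, 6.82 and 6.85 CPM in UVA, and 5.71, 5.84 and 5.70 CPM in NC. The groups did not overlap, with CT highest and NC lowest. The means were 12.3 ± 1.17 CPM in CT, 6.98 ± 0.256 CPM in UVA and 5.75 ± 0.0787 CPM in NC (SD, n = 3 each).

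TRIM16 had 3861, 3856 and 4273 counts in CT, 3060, 2775 and 3402 in UVA and 2959, 2730 and 2540 in NC. Its levels were 186, 192 and 199 CPM in CT, 170, 169 and 174 CPM in UVA, and 152, 148 and 149 CPM in NC. The 3 groups were again separate, in small and nearly equal steps. The means were 192 ± 6.94 CPM in CT, 171 ± 2.65 CPM in UVA and 149.7 ± 2.32 CPM in NC (SD, n = 3 each).

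TRIM16L had 2905, 2839 and 3024 counts in CT, 1755, 1562 and 1981 in UVA and 1597, 1415 and 1225 in NC. Its levels were 139.6, 141 and 141 CPM in CT, 97.5, 95.1 and 101 CPM in UVA, and 82.2, 76.5 and 72.0 CPM in NC. The CT libraries were almost alike and lay well above all UVA libraries, which lay above all NC libraries. The means were 141 ± 0.982 CPM in CT, 98.0 ± 3.13 CPM in UVA and 76.9 ± 5.10 CPM in NC (SD, n = 3 each).

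**Figure D1:**
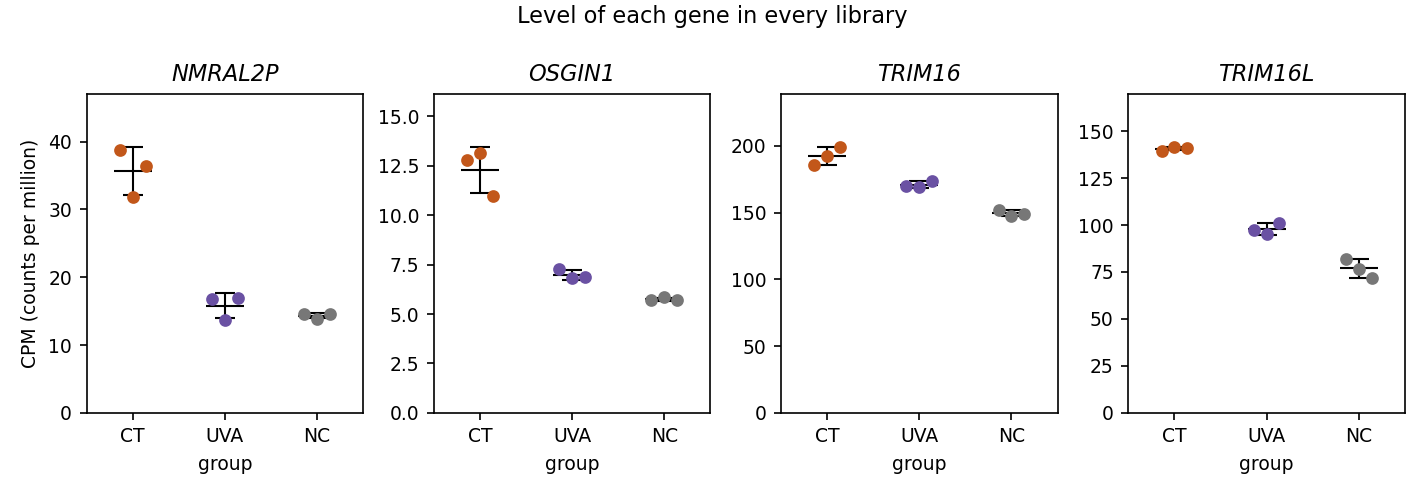
Level of each gene in CPM (linear axis from 0) in every library of the CT, UVA and NC groups; points are libraries, and bars are the mean and SD of 3 libraries. NMRAL2P averaged 35.7 CPM in CT with overlapping UVA and NC libraries, while for OSGIN1, TRIM16 and TRIM16L all UVA libraries lay between the CT and the NC libraries.

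Per kilobase of exon, the scale on which genes can be compared with each other, TRIM16 had 34.1 ± 1.23 CPM per kb in CT, 30.3 ± 0.469 in UVA and 26.5 ± 0.412 in NC. TRIM16L reached 32.5 ± 0.227 CPM per kb in CT, 22.6 ± 0.723 in UVA and 17.8 ± 1.18 in NC (SD, n = 3 each). The 2 genes were thus near each other in CT, where the highest TRIM16L library had 32.7 and the lowest TRIM16 library 32.9 CPM per kb, and further apart in UVA and NC. NMRAL2P came next, with 13.6 ± 1.34 CPM per kb in CT, 6.01 ± 0.707 in UVA and 5.45 ± 0.140 in NC. OSGIN1 was lowest, with 3.56 ± 0.338 CPM per kb in CT, 2.02 ± 0.0741 in UVA and 1.66 ± 0.0227 in NC. The exon lengths join all annotated transcripts, and those used in these cells were not determined.

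The comparison of UVA with NC asks what irradiation alone did, and it was not a contrast on which the genes were selected. It shares the UVA libraries with CT against UVA and the NC libraries with CT against NC, on which they were selected. Its p-values are therefore not fully independent of that choice. TRIM16 and TRIM16L rose in UVA, and NMRAL2P and OSGIN1 did not pass the test. TRIM16L was 1.27-fold higher (log2 fold change 0.35 ± 0.05 SE, edgeR quasi-likelihood test, Benjamini-Hochberg adjusted p = 8.09e-05), and TRIM16 was 1.14-fold higher (0.19 ± 0.04, edgeR adjusted p = 0.00254). Both were higher in 3 of 3 UVA libraries than in any NC library. The 2 genes called higher stand beside 10.5% of all 15154 tested genes called higher and 10.6% called lower in this comparison. OSGIN1 had a log2 fold change of 0.28 ± 0.13 SE (edgeR adjusted p = 0.140, unadjusted p = 0.0455), with no overlap between the groups. NMRAL2P had a log2 fold change of 0.14 ± 0.10 SE (edgeR adjusted p = 0.353). Groups did not overlap, with UVA higher, for 3 of the 4 genes, against 18.9% of all tested genes. In cultured cells sequenced in bulk, more RNA per cell and a change in the share of cells that express a gene cannot be told apart.

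CT against UVA asks what the extract did in irradiated cells, and here the values describe the choice of genes. NMRAL2P was 2.26-fold higher in CT (log2 fold change 1.17 ± 0.09 SE), OSGIN1 1.76-fold (0.82 ± 0.12), TRIM16L 1.44-fold (0.52 ± 0.05) and TRIM16 1.13-fold (0.17 ± 0.04). The smallest value in CT exceeded the largest in UVA for all 4 genes, and for 9.77% of all tested genes. Of the 15154 tested genes, 58 had a larger log2 fold change than NMRAL2P, 143 than OSGIN1, 344 than TRIM16L and 1978 than TRIM16. The gap between the lowest CT and the highest UVA library came to 95.1% of the UVA mean for NMRAL2P, 52.8% for OSGIN1, 39.1% for TRIM16L and 6.78% for TRIM16. TRIM16 had the smallest of the 4 differences as its counts were assigned, about the same as its difference between UVA and NC. With the counts of TRIM16 and TRIM16L summed, the pair had a log2 fold change of 0.31 in CT against UVA, between the values of the 2 genes.

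CT against NC sets the extract and UVA together against untreated cells, and shares its libraries with the other comparisons. The log2 fold changes were 1.32 ± 0.09 SE for NMRAL2P, 1.10 ± 0.12 for OSGIN1, 0.87 ± 0.05 for TRIM16L and 0.36 ± 0.04 for TRIM16. These are 2.49-fold, 2.14-fold, 1.83-fold and 1.28-fold higher levels in CT. The lowest CT library was above the highest NC library for all 4 genes, and for 21.8% of all tested genes. Of this log2 difference, the part that lay between UVA and NC was 10.9% for NMRAL2P, 25.5% for OSGIN1, 40.1% for TRIM16L and 53.0% for TRIM16. Most of the NMRAL2P difference thus lay between CT and UVA, and that of TRIM16 was spread about evenly.

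**Figure D2:**
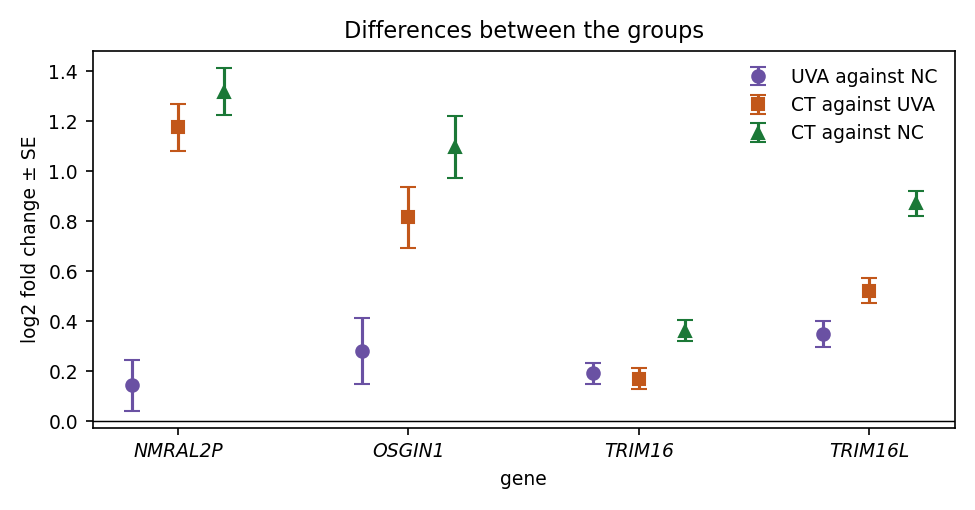
Log2 fold change of each gene with its standard error (edgeR, 3 libraries per group) for UVA against NC, CT against UVA and CT against NC; the line at 0 marks no difference. NMRAL2P has 0.14 in UVA against NC and 1.17 in CT against UVA, while TRIM16 has 0.19 and 0.17.

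The split of counts between TRIM16L and TRIM16 differed from group to group. TRIM16L took 42.9, 42.4 and 41.4% of the counts of the pair in CT, 36.4, 36.0 and 36.8% in UVA, and 35.1, 34.1 and 32.5% in NC. Each library's share has a 95% Wilson interval of at most 1.5 points on either side, which covers counting error only. The 3 groups did not overlap. The share averaged 42.3 ± 0.757% in CT, 36.4 ± 0.393% in UVA and 33.9 ± 1.27% in NC (SD, n = 3 each). The log2 ratio of TRIM16L to TRIM16 was 0.16 higher in UVA than in NC, and it was 0.35 higher in CT than in UVA and 0.51 higher in CT than in NC. With 3 libraries against 3 an exact permutation test cannot give less than 0.1. For UVA against NC the two-sided exact p was 0.1, and 0.1 after adjustment over the 3 comparisons of this ratio. The ratio in the comparisons with CT describes the choice of the genes. Reads assigned to the wrong copy would move counts between the 2 rows, and their number was not determined. With the counts of both genes summed into 1 row, the pair's log2 fold change was 0.25 ± 0.04 SE for UVA against NC, 0.31 ± 0.04 for CT against UVA and 0.56 ± 0.04 for CT against NC. The sum does not depend on how counts were split between the 2 rows, and its differences with CT describe the choice of the genes. Reads left out of the counts or assigned to other genes are not covered by it.

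**Figure D3:**
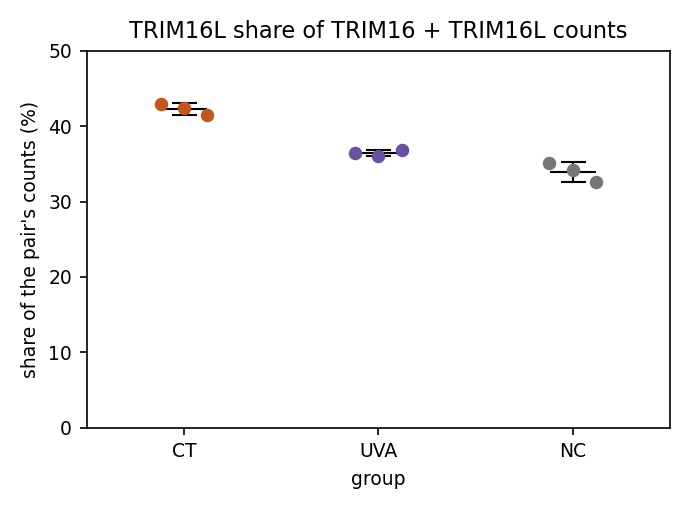
Share of the summed TRIM16 and TRIM16L counts assigned to TRIM16L, in percent, in every library of CT, UVA and NC; points are libraries, and bars are the mean and SD of 3 libraries. The 3 CT libraries lie at 41.4 to 42.9%, above the UVA libraries at 36.0 to 36.8% and the NC libraries at 32.5 to 35.1%.

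The genes whose log2 CPM followed each member most closely over the 9 libraries included several antioxidant genes. These correlations are descriptions over 9 libraries that share 3 treatments, the choice of members and the library depth, and 11215 genes were compared. NMRAL2P was most like NQO1, a quinone reductase (Pearson r = 0.97), GCLC, the catalytic subunit of glutathione synthesis (r = 0.97), and UBE2K, a ubiquitin-conjugating enzyme (r = 0.97). OSGIN1 was most like GCLC (r = 0.99), the zinc finger gene ZNF395 (r = 0.98) and the pseudogene RNF216P1 (r = 0.97). TRIM16 was most like TXN, thioredoxin (r = 0.99), PYGL, the liver form of glycogen phosphorylase (r = 0.99), and TXNRD1, thioredoxin reductase (r = 0.99). TRIM16L was most like a gene listed only as ENSG00000275740 (r = 0.99), TXNRD1 (r = 0.99) and ZNF395 (r = 0.98).

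By this choice, the genes most like each member had steps of similar shape. NQO1, like NMRAL2P, differed little between UVA and NC, with a log2 fold change of -0.03 ± 0.04 SE, and was higher in CT than in UVA by 0.42 ± 0.04. TXN, like TRIM16, had similar values at both steps, 0.32 ± 0.04 for UVA against NC and 0.34 ± 0.04 for CT against UVA. GCLC had log2 fold changes of 0.25 ± 0.05 for UVA against NC and 0.86 ± 0.05 for CT against UVA, near the 0.28 and 0.82 of OSGIN1. TXNRD1 had 0.51 ± 0.05 for UVA against NC and 0.65 ± 0.05 for CT against UVA. Among the members themselves, r was 0.97 between TRIM16 and TRIM16L, 0.97 between OSGIN1 and TRIM16L, 0.96 between NMRAL2P and OSGIN1, and lowest, 0.86, between NMRAL2P and TRIM16.

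Many other NRF2 targets were also higher in CT than in UVA. Of 34 listed, 33 were tested, since CES1 had at most 1 count in a library. In CT against UVA 17 of the 33 were called higher, against 0.944% of all tested genes, and 0 were called lower, against 0.614% of all tested genes. Before adjustment 28 targets had an edgeR p under 0.05, all of them higher. DESeq2 called 20 and limma-voom 18, again with 0 lower. Without UVA replicate 2 the 17 became 11. The list's median log2 fold change was 0.34, and that of all tested genes was 0.0025. The overall number of calls changed with single libraries, since the 236 genes called became 111, 95 or 124 without UVA replicate 1, 2 or 3, 372 without CT replicate 1, and 115 or 120 without CT replicate 2 or 3. Of the 236, 60.6% were higher in CT, and with libraries scaled by their totals alone 50.2% of 233 were.

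The members stood at different places among these targets. NMRAL2P had a larger log2 fold change in CT against UVA than all 33 targets tested, OSGIN1 than all but 5, TRIM16L than all but 8, and TRIM16 than all but 26. As the members were selected on their rise with the extract, these places describe that choice. The 5 targets with the smallest p in CT against UVA were GCLC (log2 fold change 0.86 ± 0.05 SE, edgeR adjusted p = 3.47e-10), TXNRD1 (0.65 ± 0.05, adjusted p = 1.13e-07), NQO1 (0.42 ± 0.04, adjusted p = 8.25e-07), TXN (0.34 ± 0.04, adjusted p = 3.41e-05) and GCLM, the modifier subunit of glutathione synthesis (0.44 ± 0.05, adjusted p = 4.40e-05). GCLC averaged 234 CPM in CT and 129 CPM in UVA, and NQO1 323 CPM in CT and 241 CPM in UVA. HMOX1, the heme oxygenase often used as an NRF2 readout, was barely detected, at 0.985 ± 0.609 CPM in CT, 0.513 ± 0.209 CPM in UVA and 0.875 ± 0.446 CPM in NC (SD, n = 3 each), and was not called.

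In UVA against NC the targets were called in both directions, more often higher. Of the 33, 11 (33.3%) were called higher and 5 (15.2%) lower, against 10.5% and 10.6% of all tested genes. TXNRD1 (0.51 ± 0.05 SE, edgeR adjusted p = 2.52e-06), TXN (0.32 ± 0.04, adjusted p = 2.02e-05) and GCLC (0.25 ± 0.05, adjusted p = 0.000936) rose with UVA, as TRIM16 and TRIM16L did. NQO1 (-0.03 ± 0.04, edgeR adjusted p = 0.674) and GCLM (0.03 ± 0.05, adjusted p = 0.762) were not called, nor was NMRAL2P. In CT against NC 24 of the 33 targets were called higher, against 15.7% of all tested genes, and 0 were called lower, against 14.2% of all tested genes. No target had a lower call from DESeq2 or limma-voom, or a lower value with an edgeR p under 0.05 before adjustment.

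**Figure D4:**
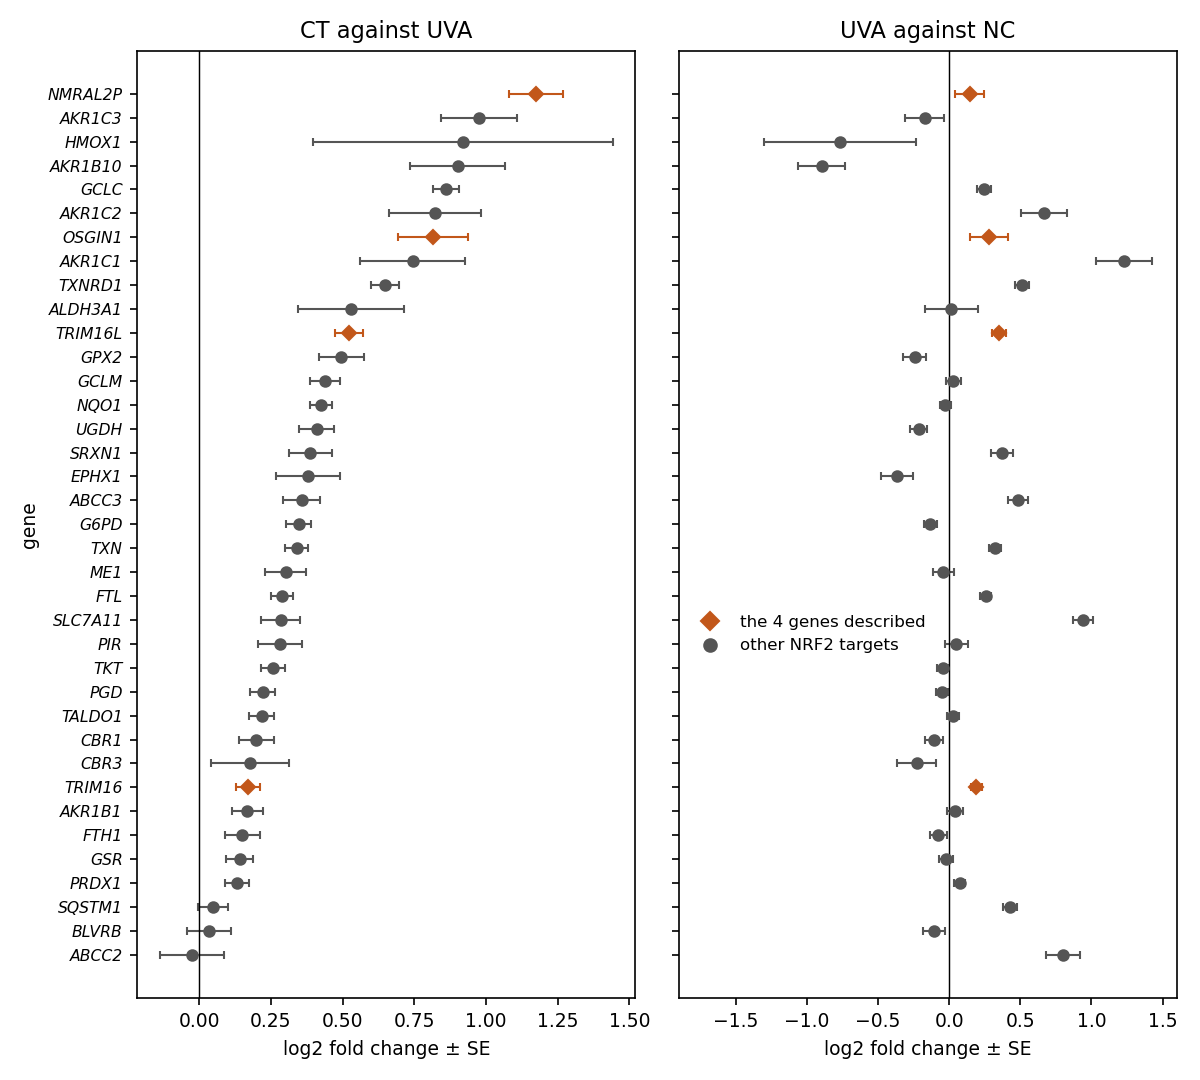
Log2 fold change with standard error (edgeR, 3 libraries per group) of NMRAL2P, OSGIN1, TRIM16 and TRIM16L (diamonds) and 33 other NRF2 targets (circles), ordered by CT against UVA; the right side shows UVA against NC for the same genes, and both sides share the UVA libraries. NMRAL2P stands above all 33 targets on the left at 1.17 and near 0 on the right at 0.14. The places of the diamonds on the left describe the choice of these genes.

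Genes that control NRF2 were called in UVA against NC, and with edgeR not in CT against UVA, where few genes of any kind were called. The difference between these comparisons was not tested. NFE2L2 itself averaged 250.4 CPM in CT, 262 CPM in UVA and 249.8 CPM in NC and was not called in any comparison. Of 9 regulators, 4 were called higher and 2 lower in UVA against NC, against 10.5% and 10.6% of all tested genes. MAFF, MAFG and MAFK, the small MAF partners of NRF2, had log2 fold changes of 1.31 ± 0.13, 0.34 ± 0.07 and 0.42 ± 0.11 SE (edgeR adjusted p = 2.59e-06, 0.00267 and 0.0113), and BACH1, a repressor that competes for the same sites, had 0.25 ± 0.07 (adjusted p = 0.0207). KEAP1 fell by 0.20 on the log2 scale (edgeR adjusted p = 0.0305), as did NFE2L1, a relative of NRF2 (adjusted p = 0.00605). KEAP1 averaged 51.1 CPM in CT, 44.4 CPM in UVA and 51.1 CPM in NC. Its CT libraries all lay above its UVA libraries, as for 2 of the 9 regulators, against 9.77% of all tested genes. In CT against UVA 0 of the 9 were called by edgeR, DESeq2 or limma-voom, against 0.944% of all tested genes called higher and 0.614% called lower by edgeR, and before adjustment 2 had an edgeR p under 0.05, both higher. In CT against NC 5 were called higher, namely MAFF, MAFG, MAFK, BACH1 and BACH2, and NFE2L1 was called lower. Of all tested genes, 15.7% were called higher and 14.2% lower in that comparison. BACH2 rested on at most 0.920 CPM in any library.

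The coding relatives of NMRAL2P and OSGIN1 had smaller log2 fold changes, which in the comparisons with CT describes the choice of the members. NMRAL1 averaged 32.8 CPM in CT, 31.3 CPM in UVA and 31.1 CPM in NC, with log2 fold changes of 0.07 ± 0.08 SE for CT against UVA (edgeR adjusted p = 0.751) and 0.01 ± 0.08 for UVA against NC (adjusted p = 0.946). OSGIN2, the relative of OSGIN1, averaged 69.8 CPM in CT, 64.3 CPM in UVA and 58.5 CPM in NC. It rose in CT against NC by a log2 fold change of 0.26 ± 0.05 SE (edgeR adjusted p = 0.00116), with 0.12 ± 0.05 for CT against UVA (adjusted p = 0.330) and 0.14 ± 0.05 for UVA against NC (adjusted p = 0.0805).

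The other genes of the TRIM family, most of them ubiquitin ligases, gave no call in CT against UVA. Of 89 listed, 44 were tested, and 0 were called by edgeR, DESeq2 or limma-voom, against 0.944% of all tested genes called higher and 0.614% called lower by edgeR, while before adjustment 3 had an edgeR p under 0.05, all lower. Those 3 were TRIM66 (log2 fold change -0.23 ± 0.07 SE, edgeR adjusted p = 0.0810), TRIM6 (-0.27 ± 0.10, adjusted p = 0.218) and TRIM22 (-0.48 ± 0.17, adjusted p = 0.286). TRIM16L had a larger log2 fold change than all 44, and TRIM16 than all but 1, which describes the choice of these genes. In UVA against NC 5 of the 44 (11.4%) were called higher and 7 (15.9%) lower, near the 10.5% and 10.6% of all tested genes. TRIM5 fell by 0.50 on the log2 scale (edgeR adjusted p = 1.19e-05) and TRIM6 by 0.65 (adjusted p = 9.46e-05), while TRIM41 rose by 0.25 ± 0.06 SE (adjusted p = 0.00493). Those 12 calls became 7 without NC replicate 2, 5 without NC replicate 3 and 7 without UVA replicate 3. In CT against NC 4 (9.09%) were called higher and 9 (20.5%) lower, against 15.7% and 14.2% of all tested genes. TRIM6 was at -0.92 ± 0.10 (edgeR adjusted p = 1.37e-06), TRIM5 at -0.51 ± 0.06 (adjusted p = 3.56e-06) and TRIM7 at 0.43 ± 0.09 (adjusted p = 0.000776).

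Genes that work with the TRIM16 protein in autophagy and in interleukin-1 release, or that it binds, included several that were called in UVA against NC. Of 10 such genes, edgeR called 4 higher and 2 lower in UVA against NC, against 10.5% and 10.6% of all tested genes, and DESeq2 and limma-voom each called 3 higher and 1 lower. SQSTM1, an autophagy receptor that is also an NRF2 target, rose by a log2 fold change of 0.43 ± 0.05 SE (edgeR adjusted p = 2.51e-05). IL1B, the cytokine whose secretion TRIM16 aids, rose by 1.21 ± 0.11 (adjusted p = 6.85e-05), and NLRP1, the inflammasome sensor of keratinocytes, by 1.15 ± 0.15 (adjusted p = 1.92e-05). VIM, at most 1.23 CPM in any library, was the other gene called higher, and CASP1 (-0.24 ± 0.08, adjusted p = 0.0439) and TFEB (-0.60 ± 0.20, adjusted p = 0.0349) were lower. In CT against UVA edgeR called 0 of the 10, against 0.944% and 0.614% of all tested genes called higher and lower, although 4 had a p under 0.05 before adjustment, 2 higher and 2 lower, and DESeq2 as well as limma-voom called 1, which was lower. NLRP1 came nearest in that direction, at -0.53 ± 0.14 (edgeR adjusted p = 0.0533). IL1B went the other way, with 79.8 CPM in CT and 65.9 CPM in UVA, and was not called. It was the 1 gene of the 10 with every CT library above every UVA library, against 9.77% of all tested genes. In CT against NC 5 were higher, ATG16L1 being added at 0.34 ± 0.08 (edgeR adjusted p = 0.00238), and CASP1 and TFEB were lower. These counts stand beside 15.7% of all tested genes called higher and 14.2% called lower in CT against NC. LGALS3, which encodes galectin-3, averaged 76.2 CPM in CT, 72.7 CPM in UVA and 79.2 CPM in NC and was not called.

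Promoter sequence was at hand for OSGIN1 and TRIM16, from RefSeq on GRCh38.p14, as windows of 250 bases before to 50 after the gene start. For OSGIN1 this start is chr16:83953240, which lies inside the gene as GENCODE 29 places it, from chr16:83948282 with 6 transcript starts. The sequence before the other starts was not searched. The windows were searched on both strands for TGACNNNGC and TGAGNNNGC, the core letters of the antioxidant response element that NRF2 binds. OSGIN1 held 1 match, TGAGTCAGC, on the strand opposite to the gene, with its leftmost base on the gene's strand 99 bases before the RefSeq start. The match contains TGAGTCA, the letters bound by AP-1. The TRIM16 window, which also lies at 1 of several annotated starts, held no match. Among 35114 promoters of the same length, 29.1% held a match to either pattern, 13.3% to TGACNNNGC and 18.3% to TGAGNNNGC, and 4.95% held TGAGTCA. Of the other NRF2 targets with a window, 14 of 30 (46.7%) held a match to either pattern. The part of the OSGIN1 window with the match, chr16:83953080-83953199 on the plus strand, is shown with the matched bases in capitals as they read on the gene's strand:
OSGIN1 promoter: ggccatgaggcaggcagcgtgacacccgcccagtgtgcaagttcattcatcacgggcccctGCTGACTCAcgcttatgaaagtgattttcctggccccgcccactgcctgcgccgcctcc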

How the data were processed

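RNA of 9 HaCaT libraries was captured on oligo(dT) beads and sequenced on an Illumina instrument by the authors, who deposited whole-number counts per gene, not normalized. The tools listed in the submitters' processing notes are bcl2fastq and fastp 0.23.2, and the build is GRCh38. Which aligner, counter, annotation and strand setting were used is not given in the sources used here. Columns were assigned to samples by their labels, and 0 were left over. Genes were kept by filterByExpr, scaled by TMM and tested over all 9 libraries with the edgeR 4.0.16 quasi-likelihood test (robust) in R 4.3.3, with Benjamini-Hochberg adjustment over 15154 genes and a threshold of 0.05. Standard errors were obtained from the fold change and its F statistic. Log2 CPM used a prior count of 2. Alternatives used DESeq2 1.42.0 and limma 3.58.1, other scalings and filters, the compared groups alone, a replicate block and each library left out. The fit was tested on simulated data. The members, the gene lists and the tests were chosen with earlier results of these data known.

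Besides the members, the genes named were the 3 most like each member (average log2 CPM of at least 2), the 2 nearest tested genes on each side, the 5 NRF2 targets with the smallest p in CT against UVA plus NQO1 and HMOX1, called genes of the regulator, relative and partner lists, and the 3 TRIM genes with the smallest p per comparison. NFE2L2, NMRAL1 and LGALS3 were named in addition, after their values were seen. Sequence words were taken from GENCODE 29 transcripts.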

Additional observations from a re-analysis of the deposited data

How the results depend on the processing

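The direction of each member's log2 fold change and its side of the threshold in UVA against NC were the same under all alternatives run, namely DESeq2, limma-voom, RLE scaling, scaling by library size only, no filter on low counts, at least 10 counts in every library, the compared groups only, the replicate block and each library left out. With each library left out, the log2 fold change in UVA against NC was 0.09 to 0.24 for NMRAL2P, 0.25 to 0.30 for OSGIN1, 0.18 to 0.21 for TRIM16 and 0.30 to 0.40 for TRIM16L. In CT against UVA it was 1.08 to 1.25, 0.76 to 0.89, 0.14 to 0.20 and 0.50 to 0.55 for the same genes. With the counts of TRIM16 and TRIM16L summed, the pair had 0.31 in CT against UVA and 0.56 in CT against NC, which are not values of either gene. Without a filter on low counts 561 genes were called in CT against UVA in place of 236, and leaving out a library gave 95 to 372. Leaving out a library gave 11 to 20 NRF2 targets in CT against UVA and 5 to 14 TRIM family genes in UVA against NC. Without the filter, and with the compared groups only, 1 TRIM family gene was called in CT against UVA, lower in CT. The causes were not tested. Libraries with the same replicate number showed no clear shared deviation, with residual correlations of -0.048 to 0.028. With 3 libraries per group, such correlations cannot tell whether these libraries had a batch in common, and the labels do not say. With the replicate block, 2802, 169 and 4145 genes were called in UVA against NC, CT against UVA and CT against NC, and no member's call in UVA against NC changed. OSGIN1 had 97 to 266 counts per library, which limits the precision of its values.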

Other observations

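In CT against UVA, of the 16 nearest tested neighbours on the chromosome, 2 on each side of each member, 0 were called in that comparison by edgeR, DESeq2 or limma-voom, against 0.944% of all tested genes called higher and 0.614% called lower by edgeR, and before adjustment 2 had an edgeR p under 0.05, both higher. Those 2 flank TRIM16L on its right side: FBXW10, an F-box gene 7906 bases away, averaged 4.72 CPM in CT and 3.12 CPM in UVA (log2 fold change 0.60 ± 0.21 SE, edgeR adjusted p = 0.184), and TVP23B, 44877 bases away, 87.9 CPM in CT and 79.9 CPM in UVA (0.14 ± 0.05, adjusted p = 0.203). On the left side ZNF286B and FOXO3B had adjusted p = 0.905 and 0.749. Beside TRIM16 the related gene FBXW10B, 8448 bases away, had 0.07 ± 0.05 (edgeR adjusted p = 0.603), and TVP23C, ZNF286A and ADORA2B had adjusted p = 0.499, 0.908 and 0.519. FBXW10B overlaps the read-through gene ENSG00000251537, as TRIM16 does. Words shared between the neighbours and other genes were not determined, so how well their counts are separated is uncertain.

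In UVA against NC 3 of the 16 neighbours were called higher and 0 lower, against 10.5% and 10.6% of all tested genes, and DESeq2 and limma-voom gave the same numbers. Before adjustment 6 had an edgeR p under 0.05, all higher. FBXW10B rose by a log2 fold change of 0.20 ± 0.05 SE (edgeR adjusted p = 0.00892), next to the 0.19 ± 0.04 of TRIM16, and ADORA2B, an adenosine receptor gene, by 0.21 ± 0.07 (adjusted p = 0.0252). ETV5, an ETS transcription factor gene 65436 bases from NMRAL2P, averaged 34.5 CPM in UVA and 7.07 CPM in NC (2.26 ± 0.35, adjusted p = 0.00608), whereas NMRAL2P averaged 15.8 CPM in UVA and 14.3 CPM in NC. In CT against UVA the values were 0.05 ± 0.29 for ETV5 (edgeR adjusted p = 0.969) and 1.17 ± 0.09 for NMRAL2P. TRA2B, IGF2BP2 and CRYGS, the other neighbours of NMRAL2P, and MLYCD, HSBP1, MBTPS1 and HSDL1, those of OSGIN1, were not called in UVA against NC. In CT against NC 7 of the 16 were called higher and 0 lower by edgeR, DESeq2 and limma-voom each, against 15.7% and 14.2% of all tested genes by edgeR, and 8 were higher and 1 lower with an edgeR p under 0.05 before adjustment. Among the 7 were FBXW10 (log2 fold change 0.75 ± 0.21 SE, edgeR adjusted p = 0.0108), TVP23B (0.20 ± 0.05, adjusted p = 0.00443) and FBXW10B (0.28 ± 0.05, adjusted p = 0.000522).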
